A study of Mus musculus with 6 samples.

Results

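The genes described here encode the subunits of the mitochondrial respiratory chain and the ATP synthase, those carried by nuclear chromosomes together with those carried by the mitochondrial DNA. Members were taken by gene symbol alone, a rule that uses no measured value, although the set of genes was proposed with results of these data known: symbols that begin with Ndufa, Ndufb, Ndufc, Ndufs or Ndufv (complex I), Uqcr (complex III), Cox4i, Cox5, Cox6, Cox7 or Cox8 (complex IV), Atp5 (complex V) or mt-Nd, mt-Co, mt-Cyt and mt-Atp (mitochondrial), and the genes Sdha, Sdhb, Sdhc, Sdhd, Cyc1 and Cycs. This gave 113 of the 55487 rows of the count table, 100 nuclear and 13 mitochondrial, after 14 matching rows with a pseudogene symbol (holding -ps) were dropped. A count was present for 110 members, and 104 (92 nuclear and 12 mitochondrial) passed the filter on low counts and were tested. Nuclear members left untested were 3 rows without any count (Cox7b2, Cox8c and a second Atp5o entry) and Cox4i2, Cox6a2, Cox8b, Ndufa11b and Ndufb4c. Mt-Atp8 was the untested mitochondrial member. The annotation lists 4 members as processed pseudogenes although their symbols do not say so (Cox6c2, Ndufa11b, Ndufb4c and Ndufs6b).

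RNA-seq was performed on intestinal epithelial cells (IECs) of the colon from mice given dextran sodium sulphate (DSS), an agent that injures the colon lining and causes colitis. The 3 control libraries, titled WT, carry the genotype label NSD2-FF (Nsd2 f/f, floxed alleles and no Cre) and 3 came from NSD2-FF-VILCRE mice (Nsd2 Vil-KO), in which Cre under the Villin promoter deletes Nsd2, a histone H3K36 methyltransferase, in the intestinal epithelium. Both genotypes carried the floxed alleles and both received DSS, so no untreated library enters any comparison. According to the methods the mice were on a C57BL/6J background and received 2% DSS at 2 months of age. The day of RNA isolation is not given in the sources used here, and Cre-positive controls without floxed alleles were not analysed here. Nothing in the labels says whether each library was made from a single mouse, so p-values measure the spread between libraries.

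Complex I (NADH dehydrogenase) and complex II (succinate dehydrogenase) feed electrons to ubiquinone, complex III passes them to cytochrome c, complex IV (cytochrome c oxidase) hands them to oxygen, and complex V makes ATP from the proton gradient that complexes I, III and IV build. Complexes I, III, IV and V are mosaics: nuclear genes supply most subunits, which are imported, while mitochondrial DNA supplies core subunits that its own polymerase transcribes as long polycistronic RNAs. Complex II is wholly nuclear. In the colon this machinery is most active in absorptive colonocytes, which oxidise butyrate.

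The libraries held 15439123 to 20350539 counts. Levels are given in CPM, the counts of a gene scaled to library size with TMM factors. In Nsd2 f/f replicates 1, 2 and 3 the targeted gene Nsd2 was at 47.9, 51.2 and 24.6 CPM. In Vil-KO 1, 2 and 3 it was at 24.2, 10.4 and 20.8 CPM, so the groups did not overlap but f/f 3 lay just above the Vil-KO range. The log2 fold change of Nsd2 (Vil-KO minus f/f) was -1.16 ± 0.39 (SE), with an exact two-sided permutation p of 0.1, the smallest that 3 against 3 allows. It passed the criterion given below, but not without f/f 1 (-1.04) or f/f 2 (-0.97). The libraries Vil-KO 2 and f/f 3 stood apart from the other 4 libraries, with a mean Spearman correlation of 0.927 and 0.937 against 0.959 to 0.964. They also held Xist at 204 and 347 CPM, against at most 0.255 CPM in the others. The medians over all nuclear and all mitochondrial members and the counts of called members are given with and without them. The larger fold changes are given without f/f 3, and medians of single complexes, lists, motifs and lengths come from all 6 libraries only. Epithelial markers (Epcam, Vil1, keratins and others) summed to 11358 to 17336 CPM, and 7 absorptive colonocyte markers summed to 2653, 2748 and 7218 CPM in f/f 1, 2 and 3 and to 3600.1, 2480.1 and 3389 CPM in Vil-KO 1, 2 and 3. Crypt proliferation markers were lowest in the same 2 libraries that stand apart, at 724, 769.6 and 215 CPM in f/f and 714, 318 and 926 CPM in Vil-KO, and leukocyte markers ranged from 28.3 CPM in f/f 3 to 1004 CPM in Vil-KO 2. Their part in the results below was not tested, and in bulk RNA fewer cells of a type and less RNA per cell cannot be told apart.

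Sequences of 2 kinds are given. The first is shown because the mitochondrial genome has copies in nuclear chromosomes. Mt-Atp6, the subunit a of the ATP synthase (mitochondrial DNA, bases 7927 to 8607, GRCm38), was compared with the annotated pseudogene Gm10925 on chromosome 1, and mt-Cytb, the only mitochondrial subunit of complex III, with Gm11410 on chromosome 4. The 4 runs below are 80 bases each, 5′ to 3′ on the strand of the gene, from the GRCm38 transcripts of GENCODE vM21, with bases that differ within a pair in capitals.
mt-Atp6 (mitochondrial bases 7927 to 8006): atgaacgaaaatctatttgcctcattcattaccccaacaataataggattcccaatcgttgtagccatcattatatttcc
Gm10925 (chr1:24614572-24614651, minus strand): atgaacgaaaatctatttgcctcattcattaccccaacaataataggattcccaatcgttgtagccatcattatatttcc
mt-Cytb (mitochondrial bases 14246 to 14325): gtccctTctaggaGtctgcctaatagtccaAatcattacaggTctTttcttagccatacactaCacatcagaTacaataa
Gm11410 (chr4:80004090-80004169, plus strand): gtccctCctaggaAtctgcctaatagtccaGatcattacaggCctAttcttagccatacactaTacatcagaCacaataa
The mt-Atp6 pair had no mismatch here and none over 678 aligned bases, whereas the mt-Cytb pair had 7 mismatches in 80 bases and 81 over 1142 (92.9% identity). A read of mt-Atp6 therefore fits 2 places in the genome and a read of mt-Cytb usually fits 1.

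Copies of that near-perfect kind lie side by side on the minus strand of chromosome 1 for mt-Co2 (Gm28661), mt-Atp6 (Gm10925), mt-Co3 (Gm28437), mt-Nd3 (Gm28438) and mt-Nd4l (Gm10222), at 99.7% to 100% identity over at least 99.0% of each mRNA, and for 63.6% of mt-Nd4 (Gm28439). The closest annotated copies of the other mitochondrial members with a match (mt-Nd2, mt-Nd5, mt-Nd6, mt-Cytb and mt-Co1) were 92.9% to 97.6% identical. No annotated transcript matched mt-Nd1 or mt-Atp8 over 150 bases. The levels of the mitochondrial mRNAs also differed widely. Mt-Co1, the catalytic core of complex IV, took 57.0% to 66.6% of the mitochondrial mRNA counts of a library, mt-Cytb 11.6% to 16.8% and mt-Nd1 9.36% to 10.7%. By contrast mt-Co2 took 0.202% to 0.367%, mt-Co3 0.0870% to 0.122%, mt-Atp6 0.0417% to 0.0787% and mt-Nd3 and mt-Nd4l under 0.007% each. Mt-Atp8, without an annotated match of 150 bases, took the lowest share, at most 0.00179%. Counts of the 5 genes copied whole are therefore uncertain, since how reads with several matches were counted is not given in the sources used here. The same holds for the end of mt-Atp8 (bases 7927 to 7969), which lies in the run of mt-Atp6 identical to Gm10925. Copies outside annotated transcripts were not searched for. Gm10925 itself held 2075, 1763 and 5198 counts in f/f 1, 2 and 3 and 1254, 2692 and 1052 in Vil-KO 1, 2 and 3, more than mt-Atp6 in every library (67.7% to 75.01% of the sum of both). Mt-Nd6 is transcribed from the strand opposite to the other 12 and overlaps the end of mt-Nd5, and without knowledge of the strand used in counting their reads cannot be told apart there.

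**Figure D1:**
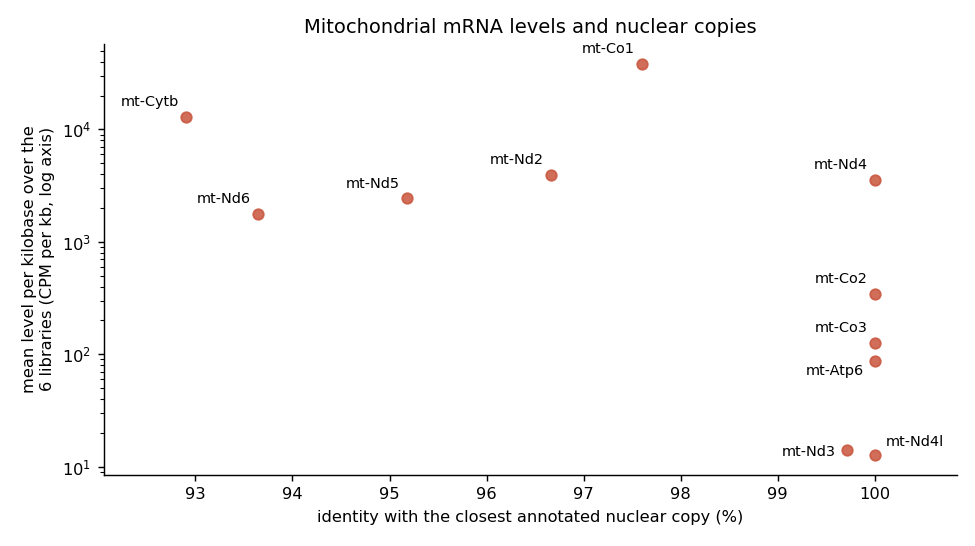
Mean level over the 6 libraries of 11 mitochondrial mRNAs (CPM per kb of exon, log axis) against their identity with the closest annotated nuclear copy (%), each point a gene. The 5 genes copied whole at 99.7% identity or more lie between 12.6 and 345 CPM per kb and the others at 1756 or above, mt-Nd4 being copied over only 63.6% of its length. Mt-Nd1 and mt-Atp8, without a match, are not drawn, and mt-Atp8 was at 4.95 CPM per kb.

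The second kind of sequence is the promoter, shown because nuclear respiratory genes are known targets of NRF1, the ETS factor GABP, YY1 and ERR receptors. RefSeq windows (GRCm38.p6) of 250 bases before to 50 bases after the start were found for 77 of 99 nuclear symbols. They were searched on both strands for GCGCATGCG (NRF1), CCGGAAG (ETS), AAGATGGC (YY1) and TCAAGGTCA (ERR). The NRF1 letters were in 14.3% of member promoters against 1.95% of the promoters of all 27025 genes in the table, the ETS letters in 24.7% against 9.93%, the YY1 letters in 14.3% against 3.19% and the ERR letters in 2.60% against 0.466%. At least 1 of the motifs was in 36 of 77 member promoters (46.8%) and in 14.5% of all. The promoters below each hold 2 kinds and belong to Atp5k, the nuclear member called in the comparison of genotypes, Cox6a1, the most abundant nuclear member per length, and Sdhd, a membrane anchor of complex II. Motif letters are in capitals on whichever strand they were read, and the NRF1 letters match on both strands 1 base apart in Atp5k and Cox6a1.
Atp5k (chr5:108434350-108434649, minus strand; NRF1, then ETS): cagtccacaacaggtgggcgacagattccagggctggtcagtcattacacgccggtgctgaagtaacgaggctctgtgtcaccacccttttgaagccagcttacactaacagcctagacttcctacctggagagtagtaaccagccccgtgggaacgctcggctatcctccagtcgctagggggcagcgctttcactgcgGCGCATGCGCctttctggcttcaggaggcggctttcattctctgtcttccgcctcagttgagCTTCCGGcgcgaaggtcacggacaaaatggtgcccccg
Cox6a1 (chr5:115348909-115349208, minus strand; NRF1, then ETS): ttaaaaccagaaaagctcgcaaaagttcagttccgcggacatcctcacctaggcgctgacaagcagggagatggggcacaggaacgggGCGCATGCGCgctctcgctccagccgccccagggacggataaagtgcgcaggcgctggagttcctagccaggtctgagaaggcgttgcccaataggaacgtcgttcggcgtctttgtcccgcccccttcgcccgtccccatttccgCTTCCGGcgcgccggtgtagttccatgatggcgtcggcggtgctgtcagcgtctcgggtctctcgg
Sdhd (chr9:50603800-50604099, minus strand; ETS, then ERR): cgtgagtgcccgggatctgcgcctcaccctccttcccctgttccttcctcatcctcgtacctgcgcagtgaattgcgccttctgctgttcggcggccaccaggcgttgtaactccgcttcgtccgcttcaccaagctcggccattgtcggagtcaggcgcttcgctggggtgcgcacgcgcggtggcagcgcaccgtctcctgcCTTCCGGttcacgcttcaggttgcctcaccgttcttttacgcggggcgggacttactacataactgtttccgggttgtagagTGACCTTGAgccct
In Atp5k the NRF1 letters start 50 bases before the transcription start and the ETS letters 13 bases after it. The median log2 fold change was -0.27 for the 11 tested members with the NRF1 letters and -0.22 for the 64 without. It was -0.23 for 19 with and -0.22 for 56 without the ETS letters, and -0.33 for 11 with and -0.21 for 64 without the YY1 letters. It was -0.05 for the 2 with and -0.23 for the 73 without the ERR letters. These medians are a description and were not tested.

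Between the genotypes, most members had lower values in Nsd2 Vil-KO. Of the 104 tested, 94 had a log2 fold change below 0 (all 12 mitochondrial and 82 of 92 nuclear) and 10 above, against 49.9% below 0 over all 14650 genes tested. The median log2 fold change was -0.23 over nuclear members and -1.03 over mitochondrial members, with 0.00 over all genes tested. A gene was called when its fold change exceeded 1.2 in either direction with an unadjusted p below 0.05 in edgeR's quasi-likelihood test. The study's results section states the same limits of fold change and p for its screen, while its methods name an adjusted p. Its own tests were made with another tool on FPKM values. Called members numbered 2, Atp5k and mt-Atp6, both lower in Vil-KO (1.92% of the 104), where 3.29% of all genes were called (1.65% in each direction). After Benjamini-Hochberg adjustment over all genes no member and no gene passed 0.05 in edgeR (smallest adjusted p of a member 0.992), while 2 members and 482 genes had an unadjusted p below 0.05. DESeq2 and limma-voom with library quality weights called 5 members each, where they called 4.33% and 9.83% of all genes. Called members numbered 2 with RLE size factors (3.28% of all genes called), 4 with library sizes alone (2.61%), 1 with the mitochondrial genes left out (3.31%), 5 without the filter (3.27%), 3 when every library had to hold 10 counts or more (3.21%) and 0 with the replicate number as a block (2.07%). Leaving out 1 library gave 2 called members without Vil-KO 1 (3.67%), 3 without Vil-KO 2 (5.08%), 1 without Vil-KO 3 (3.4%), 11 of 106 without f/f 1 (3.12%) and 5 without f/f 2 (2.14%).

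**Figure D2:**
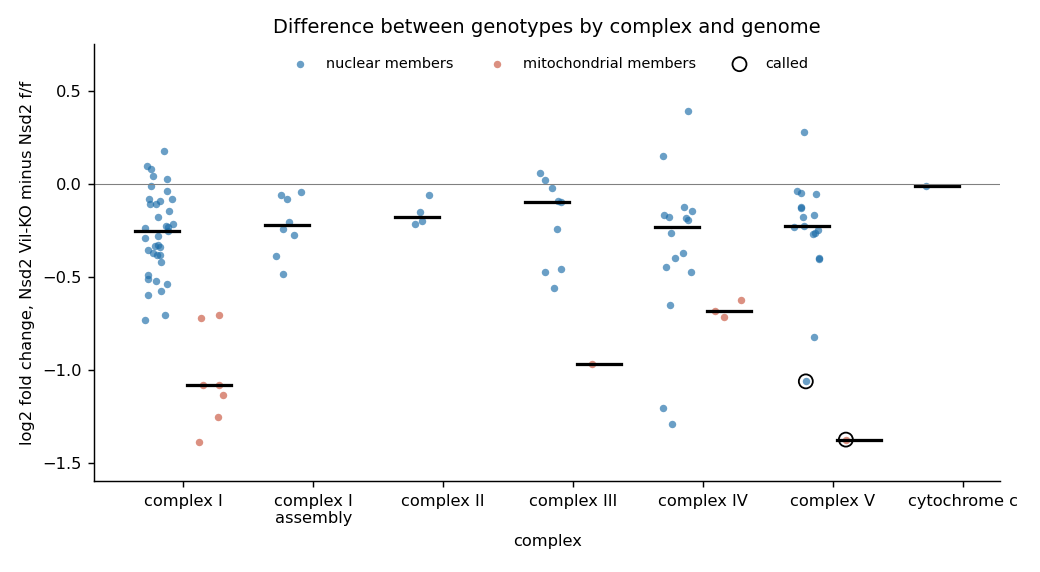
Log2 fold change (Nsd2 Vil-KO minus Nsd2 f/f, edgeR) of each tested member by complex and genome, with black lines for medians and circles for the 2 called members. Nuclear medians lie between -0.25 and -0.02, and mitochondrial members between -1.39 and -0.62.

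Both medians lost their negative sign without a single library, f/f 3. Centred on each gene's mean over the 6 libraries, the median log2 CPM of nuclear members was -0.22, -0.10 and 0.65 in f/f 1, 2 and 3 and -0.36, 0.32 and -0.28 in Vil-KO 1, 2 and 3. For mitochondrial members it was -0.35, -0.27 and 1.66 in f/f and -0.38, 0.08 and -0.65 in Vil-KO. Nsd2 f/f replicate 3 was thus high for both genomes, far more for the mitochondrial, and Vil-KO replicate 2 was second highest. Replicate 3 was the highest library for 76 of 92 nuclear and 12 of 12 mitochondrial members, against 23.7% of all genes tested. In the lists described below, it was also highest for 14 of 19 citrate cycle and pyruvate dehydrogenase genes and 26 of 41 further assembly factors. The numbers were 12 of 26 for mitochondrial DNA maintenance and expression, 9 of 20 for carriers, import and membrane and 4 of 9 for transcription regulators. The level of the members in f/f 3 was 1.77 times (nuclear median) and 3.72 times (mitochondrial median) the mean of f/f 1 and 2. These levels include the TMM factor, which was 0.803 in f/f 3 against 1.10 and 1.06 in f/f 1 and 2. Nuclear shares of the raw counts, 1.97%, 2.08% and 2.58% in f/f 1, 2 and 3, differed less. In Vil-KO, replicate 2 exceeded both other replicates for 81 of 92 nuclear and 10 of 12 mitochondrial members, at 1.54 and 1.55 times their mean.

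**Figure D3:**
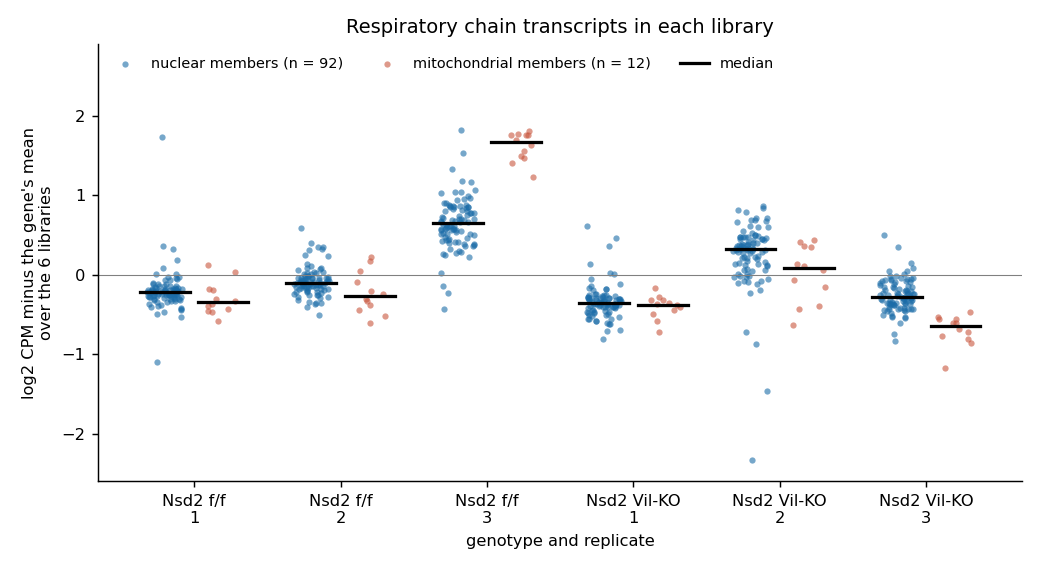
Log2 CPM of each tested member minus its mean over the 6 libraries, by library, for 92 nuclear and 12 mitochondrial members, with black lines for medians. Nsd2 f/f 3 has the highest medians (0.65 and 1.66), followed by Nsd2 Vil-KO 2 (0.32 and 0.08).

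The size of the nuclear median also moved with other libraries, to -0.0851 without Vil-KO 1, -0.51 without Vil-KO 2, -0.13 without Vil-KO 3, -0.38 without f/f 1 and -0.34 without f/f 2. Without Nsd2 f/f 3, the medians were 0.10 (nuclear) and 0.01 (mitochondrial), 67 of 93 nuclear members lay above 0, and no member was called (0 of 105, against 3.38% of all genes). With both libraries that stand apart left out, 2 against 2, the medians were -0.15 and -0.19. In that fit 12 members were called, 11.5% of 104, where 11.0% of all genes were called. They were mt-Atp6 and, among nuclear members, Ndufa1, Ndufa4, Ndufb10, Ndufs4, Ndufaf5, Uqcrq, Uqcr10, Cox7c, Atp5j and Atp5mpl, all lower, and Ndufa12, higher. That share is close to the background of its fit.

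**Figure D4:**
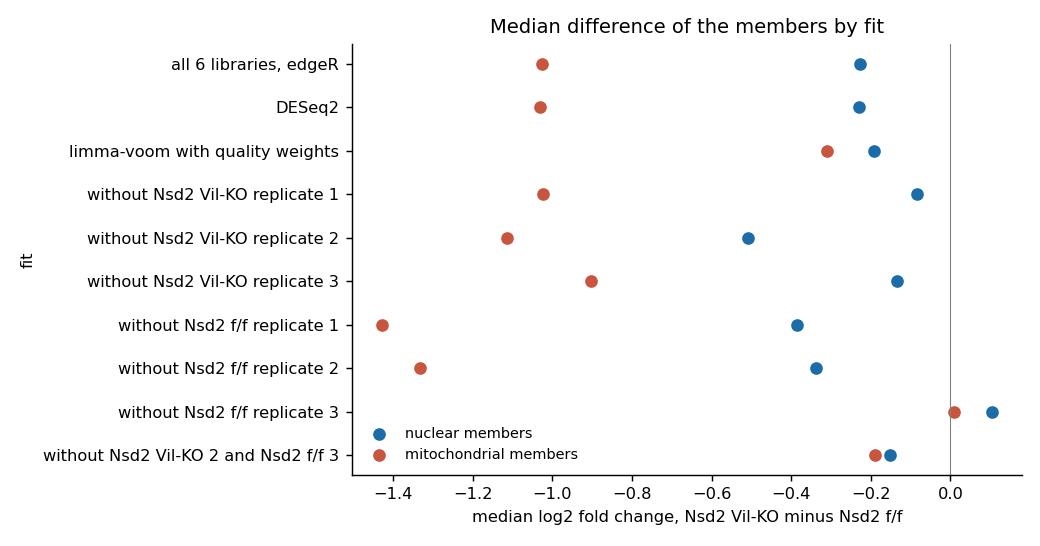
Median log2 fold change (Nsd2 Vil-KO minus Nsd2 f/f) of nuclear and mitochondrial members in the fit to all 6 libraries, under other methods and with libraries left out. Both medians lie below 0 in every fit shown except the one without Nsd2 f/f 3, where they are 0.10 and 0.01.

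Complex I had 37 nuclear subunits tested. Their log2 fold changes ranged from -0.74 to 0.17 around a median of -0.25. None was called in edgeR with all 6 libraries, TMM factors and the filter on low counts. Ndufa1, an accessory subunit of the membrane arm (X chromosome, bases 37187588 to 37191163, minus strand), was the most abundant nuclear subunit of the complex per length. It was at 89.9, 92.9 and 193 CPM in f/f and 72.5, 88.3 and 68.9 CPM in Vil-KO. The groups did not overlap, although the highest Vil-KO library was within 2 CPM of the lowest f/f library. Its log2 fold change was -0.71 ± 0.32 (SE; edgeR, adjusted p = 0.992) and -0.25 without f/f 3. Limma-voom called Ndufa1, as did edgeR with library sizes alone, without the filter, without f/f 1 and without f/f 2. It was not called without f/f 3 or without any 1 of the Vil-KO libraries. Across all members 3 had groups that did not overlap, Ndufa1, mt-Nd3 and the assembly factor Ndufaf2, all lower in Vil-KO, against 9.9% of all genes tested (4.7% lower and 5.21% higher). Ndufa2 was the next nuclear subunit in level and was at 94.4, 100.04 and 179 CPM in f/f and 83.2, 153 and 82.1 CPM in Vil-KO. Ndufv1, which binds NADH, had the smallest p among the subunits with higher values, at 160, 153 and 249.96 CPM in f/f and 157, 313 and 166 CPM in Vil-KO (log2 fold change 0.17 ± 0.34). For both genes the highest library of each genotype was the one that stands apart.

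The 8 Ndufaf assembly factors, which build complex I without staying in it, were all below 0, with a median of -0.23. Without f/f 3, 4 of them (Ndufaf1, Ndufaf3, Ndufaf6 and Ndufaf8) were above 0, at 0.0757 to 0.17. Ndufaf2 was at 17.2, 16.01 and 24.9 CPM in f/f and 12.6, 15.3 and 13.6 CPM in Vil-KO (log2 fold change -0.48 ± 0.25, edgeR, adjusted p = 0.992), and its log2 fold change was -0.26 without f/f 3. A second annotated gene, B230220B15Rik, shares 1955 bases with it at 100% identity, so reads could fit either. Ndufaf2 had the smallest p of this group, with every Vil-KO library below every f/f library. Limma-voom called Ndufaf2 and Ndufaf5, both lower, where it called 9.83% of all genes. With all 6 libraries edgeR called none of the group.

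The 7 mitochondrial subunits of complex I, which form its proton-pumping membrane core, had a median log2 fold change of -1.08. None was called in edgeR with all 6 libraries, TMM factors and the filter on low counts. DESeq2 called mt-Nd2 and mt-Nd3. With library sizes alone, without the filter or with 10 counts or more in every library, edgeR called mt-Nd3. It called mt-Nd2, mt-Nd3 and mt-Nd4l without f/f 1, mt-Nd3 without f/f 2 and none without f/f 3. Mt-Nd1 was at 5989, 6381 and 24266 CPM in f/f and 6337, 11041 and 5033 CPM in Vil-KO. Mt-Nd2 was at 2714, 3187 and 11068 CPM in f/f and 3038, 2205 and 2463 CPM in Vil-KO (log2 fold change -1.14 ± 0.58, and -0.20 without f/f 3). Mt-Nd4 was at 2989, 3486 and 13554 CPM in f/f and 3317, 3627 and 2507 CPM in Vil-KO, and its log2 fold change without f/f 3 was -0.04. In all of them f/f 3 was far above the rest, and f/f 1 and 2 lay within the Vil-KO range or, for mt-Nd2 in f/f 2, just above it. Mt-Nd5 (log2 fold change -0.72 ± 0.54, and 0.10 without f/f 3) and mt-Nd6 (-1.08 ± 0.63, and 0.03 without f/f 3) were again highest in f/f 3, at 10279.8 and 2567 CPM. Mt-Nd3 was at 3.12, 4.55 and 13.5 CPM in f/f and 2.93, 2.94 and 2.09 CPM in Vil-KO (-1.39 ± 0.59; edgeR, adjusted p = 0.992), and without f/f 3 its log2 fold change was -0.52. Mt-Nd4l was at 1.98, 3.43 and 10.6 CPM in f/f and 2.39, 2.22 and 1.94 CPM in Vil-KO, with a log2 fold change of -0.29 without f/f 3. These last 2 genes rest on few counts.

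Complex II has no mitochondrial subunit, so it shows the nuclear pattern alone. All 4 genes were below 0, with log2 fold changes from -0.22 to -0.06, and without f/f 3 all 4 were above 0, from 0.0563 to 0.24. Sdha, the flavoprotein that oxidises succinate, was at 386, 432 and 599.5 CPM in f/f and 402, 433 and 438 CPM in Vil-KO. Sdhb, the iron-sulphur subunit, was at 182, 189.9 and 316 CPM in f/f and 166, 257 and 175 CPM in Vil-KO. Sdhd, the anchor whose promoter is shown above, was at 293, 289 and 495 CPM in f/f and 257, 508 and 266 CPM in Vil-KO (log2 fold change -0.06 ± 0.36). The values of each gene overlapped between genotypes.

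Complex III had 9 nuclear subunits tested, with a median of -0.10, and 1 mitochondrial subunit, mt-Cytb, at -0.97 ± 0.62, which was -0.00403 without f/f 3. Uqcrc1, a core subunit (chromosome 9, bases 108936633 to 108949623, plus strand), was at 371, 398 and 663 CPM in f/f and 377, 621 and 449.6 CPM in Vil-KO, and its log2 fold change was 0.02 ± 0.32 (SE). Uqcrc2, its partner, was the other member above 0 (0.06 ± 0.27). Uqcr10, the most abundant nuclear subunit per length at 583 CPM per kb, was at 248, 277 and 532 CPM in f/f and 203, 566 and 216 CPM in Vil-KO. Uqcrh, the hinge protein, was at 307, 358 and 686 CPM in f/f and 282, 428 and 274 CPM in Vil-KO. Uqcrb had the smallest p of those below 0 (-0.56 ± 0.37, edgeR, adjusted p = 0.992), and it was -0.12 without f/f 3. Mt-Cytb was at 9562, 10611 and 38855 CPM in f/f and 9668, 11929 and 8522 CPM in Vil-KO. The level in f/f 3 was 1.97 times the mean of f/f 1 and 2 for the nuclear subunits (median over the 9) and 3.85 times for mt-Cytb.

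Complex IV had 16 nuclear members tested, including Ndufa4, which is now assigned to this complex, with a median of -0.23. Its 3 mitochondrial subunits had a median of -0.69. Mt-Co1 (mitochondrial bases 5328 to 6872) was at 36702, 40828 and 142651 CPM in f/f and 39387, 68459 and 28906 CPM in Vil-KO, a log2 fold change of -0.69 ± 0.71 (SE) that was 0.24 without f/f 3. Mt-Co2 was at 228, 137 and 492 CPM in f/f and 149, 269 and 138 CPM in Vil-KO, and mt-Co3 at 75.8, 59.6 and 237 CPM in f/f and 57.1, 109 and 59.4 CPM in Vil-KO. Their standard errors of 0.49 to 0.71 were close in size to their changes, and f/f 3 was again the highest library. Cox5a, which with Cox4 surrounds the core (chromosome 9, bases 57521274 to 57532426, plus strand), was at 216, 261 and 389 CPM in f/f and 221, 279 and 262 CPM in Vil-KO (-0.18 ± 0.26). Ndufa4 (chromosome 6, bases 11900292 to 11907497, minus strand) differed from most members in being flat over f/f, at 165, 163 and 171 CPM, with 120.3, 294 and 139 CPM in Vil-KO. Its log2 fold change was 0.15 ± 0.34 with all libraries and -0.36 ± 0.14 without Vil-KO replicate 2. Without both libraries that stand apart it was -0.33 ± 0.11.

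Several complex IV subunits come in a ubiquitous form and in a form of muscle, testis or lung, and the epithelial libraries held the ubiquitous forms. Cox4i1 was at 400.1 to 811 CPM and Cox4i2, the lung form, at 0 to 0.255 CPM. Cox6a1 was at 897 to 1421 CPM and Cox6a2, the heart and muscle form, had counts only in f/f 3 (0.0808 CPM). Cox8a was at 597 to 1077 CPM and Cox8b at 0 to 0.485 CPM. Cox6b1 was at 261 to 645 CPM and Cox6b2, the testis form, at 1.06 to 2.19 CPM. Cox6b2 had the smallest p of those with higher values in Vil-KO (log2 fold change 0.39 ± 0.44, and 0.23 to 0.76 with 1 library left out). The values of each of these 8 genes overlapped between genotypes.

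Cox7a1, the muscle form of subunit 7a, was detected throughout, at 13.5, 14.6 and 55.9 CPM in f/f and 13.8, 8.54 and 11.7 CPM in Vil-KO, with a log2 fold change of -1.29 ± 0.58 (SE; edgeR, adjusted p = 0.992). It was high in f/f 3 alone, and without that library its log2 fold change was -0.30 ± 0.29. DESeq2 called Cox7a1, as did edgeR without f/f 1 and without f/f 2, but not edgeR with all 6 libraries or without f/f 3. Smooth muscle markers (Acta2, Myh11, Des, Actg2, Tagln and Cnn1) summed to 8.82, 20.6 and 2.18 CPM in f/f 1, 2 and 3 and to 12.3, 3.33 and 7.46 CPM in Vil-KO, lowest in f/f 3. Cox7a2, the ubiquitous form, was at 184, 189.7 and 309 CPM in f/f and 162, 276 and 179 CPM in Vil-KO. Cox7a2l, which joins complexes III and IV, was at 178, 134 and 365 CPM in f/f and 141, 240.1 and 105 CPM in Vil-KO. Ndufa4l2, a paralogue of Ndufa4 known to be induced by hypoxia, was at 2.68, 0.886 and 0.646 CPM in f/f and 0.731, 0.0555 and 1.07 CPM in Vil-KO. It and Ndufb2, at 6.391, 7.504 and 4.201 CPM in f/f, were the 2 tested members with f/f 3 as the lowest f/f library.

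Complex V had 17 nuclear members tested, with a median of -0.23. Atp5a1 and Atp5b, which form the catalytic head, were the most abundant per length at 569.9 and 471 CPM per kb. Atp5a1 was at 1496, 1596 and 2362 CPM in f/f and 1408, 2184 and 1673 CPM in Vil-KO, and Atp5b at 1634, 1861 and 2605 CPM in f/f and 1586, 2380.3 and 1911 CPM in Vil-KO. Both had a log2 fold change of -0.05 ± 0.31 (SE). Atp5k, a small subunit at the dimer interface of the membrane part (chromosome 5, bases 108433244 to 108434448, minus strand), was at 72.3, 124 and 236 CPM in f/f and 63.7, 81.5 and 61.3 CPM in Vil-KO. Its values overlapped, since f/f 1 lay below Vil-KO 2, and the f/f libraries differed by more than 3 times. Its log2 fold change was -1.06 ± 0.41 (edgeR's quasi-likelihood test, adjusted p = 0.992) and it missed the criterion in edgeR without f/f 3 (-0.51), Vil-KO 1 (-1.01), Vil-KO 2 (-1.20) or Vil-KO 3 (-0.99), and without both libraries that stand apart (-0.64). A dropped processed pseudogene, Atp5k-ps2, is 95.7% identical to it over 210 bases and held 53 to 133 counts a library. Atp5k-ps2 was at 4.01, 5.02 and 10.7 CPM in f/f and 2.78, 2.94 and 3.12 CPM in Vil-KO. The groups did not overlap, and it met the criterion by itself (log2 fold change -1.14 ± 0.45, edgeR, adjusted p = 0.992). Atp5g2, a form of the rotating c ring, had the smallest p of those above 0, at 177, 153 and 228 CPM in f/f and 149.9, 349 and 175 CPM in Vil-KO (0.28 ± 0.35).

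Mt-Atp6, the mitochondrial member called, was at 49.0, 49.1 and 161 CPM in f/f and 28.9, 49.8 and 21.1 CPM in Vil-KO. The groups overlapped at Vil-KO 2, and Vil-KO 1 and 3 lay below every f/f library. Its log2 fold change was -1.38 ± 0.55 (SE; edgeR, adjusted p = 0.992). It missed the criterion in edgeR without f/f 3 (-0.56), Vil-KO 1 (-1.28) or Vil-KO 3 (-1.13), and was -0.96 ± 0.17 without both libraries that stand apart. Summed with its identical copy Gm10925, it came to 152, 153 and 581 CPM in f/f and 90.0, 199 and 74.9 CPM in Vil-KO, in the same order of libraries. Mt-Atp8, whose reading frame overlaps the start of mt-Atp6, had at most 4.36 CPM (f/f 3).

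Nuclear and mitochondrial reads were then set against each other within each library, where size factors cancel. The log2 ratio of nuclear to mitochondrial counts of complex I was -2.22, -2.15 and -3.24 in f/f 1, 2 and 3 and -2.39, -2.07 and -1.96 in Vil-KO 1, 2 and 3. For complex III it was -2.07, -2.10 and -3.14 in f/f and -2.20, -1.66 and -1.88 in Vil-KO, and for complex IV -3.07, -3.07 and -4.15 in f/f and -3.22, -3.46 and -2.78 in Vil-KO. In these complexes f/f 1 and 2 fell within the Vil-KO range and f/f 3 fell 0.69 to 0.94 log2 units below it. The mean differences (Vil-KO minus f/f) of 0.40, 0.52 and 0.28 log2 units compare with pooled SDs of 0.46, 0.47 and 0.51, and without f/f 3 they were 0.05, 0.17 and -0.09.

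Complex V differed in that the groups did not overlap. The ratio was 7.03, 7.14 and 6.08 in f/f and 7.67, 7.57 and 8.34 in Vil-KO, a mean difference of 1.11 (pooled SD 0.51), and 0.77 without f/f 3. Its mitochondrial side is mt-Atp6 alone, at 414 to 1996 counts. With Gm10925 added to mt-Atp6 the ratio was 5.40, 5.50 and 4.23 in f/f and 6.03, 5.57 and 6.51 in Vil-KO, again without overlap but with f/f 2 and Vil-KO 2 only 0.07 apart. No test was made of these ratios, which are sums over chosen members.

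**Figure D5:**
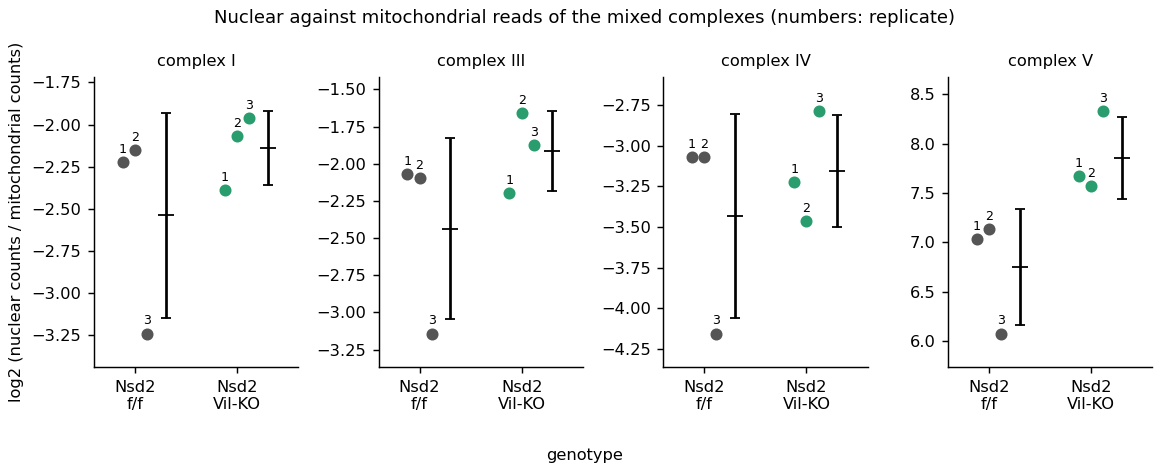
Log2 ratio of summed nuclear to summed mitochondrial counts for complexes I, III, IV and V in each library (numbered points, by replicate), with mean and SD (n = 3) beside each genotype. Nsd2 f/f 3 is the lowest point in all 4 complexes, and only in complex V do the genotypes not overlap (7.03, 7.14 and 6.08 against 7.67, 7.57 and 8.34).

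Over all complexes mitochondrial members made up 6.84%, 7.24% and 19.6% of the counts of f/f 1, 2 and 3 and 7.24%, 9.10% and 5.50% of those of Vil-KO. Nuclear members made up 1.97%, 2.08% and 2.58% in f/f and 1.85%, 2.37% and 1.98% in Vil-KO. The mitochondrial share of f/f 3 was thus more than 2 times that of every other library, and its nuclear share was the highest by a small margin. Library f/f 3 was also the one with the highest colonocyte markers and the lowest proliferation markers. Vil-KO 2, second highest in both shares, had the lowest colonocyte markers (2480.1 CPM) and the second lowest proliferation markers (318 CPM). Whether these marker levels bear on the shares was not tested.

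Nuclear subunits were also divided by their exon length over all transcripts of a gene. The 42 subunits with at most 1631 bases had a median log2 fold change of -0.28 (range -1.29 to 0.39) and the 42 longer ones -0.17 (range -0.83 to 0.28), a difference that was not tested. Over all genes tested the medians on either side of that length were -0.07 and 0.01. With the length trend of all nuclear genes removed, the nuclear median was -0.17.

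Counts were also split between some members and a processed pseudogene. Ndufs5, an accessory subunit of complex I, held 794, 1140 and 902 counts in f/f 1, 2 and 3 and 663, 947 and 1318 in Vil-KO 1, 2 and 3. Its dropped copy Ndufs5-ps (99.4% identical over 319 bases) held 731, 6 and 798 counts and 590, 888 and 0 counts in the same order. In 4 libraries the copy took 46.9% to 48.4% of the sum and in f/f 2 and Vil-KO 3 at most 0.524%, a split that crosses genotype. The sum, at 75.6, 67.7 and 137 CPM in f/f and 61.1, 102 and 67.3 CPM in Vil-KO, was highest in f/f 3 and next highest in Vil-KO 2. Ndufa12, the member called as higher when both libraries that stand apart were left out, had a copy, Ndufa12-ps, that took 47.3%, 51.2% and 48.2% of the sum of both in f/f and 23.3%, 47.8% and 29.1% in Vil-KO. The sum came to 77.3, 108 and 174 CPM in f/f and 84.3, 104 and 88.4 CPM in Vil-KO, and the groups overlapped.

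Genes that act on the chain were examined in 5 lists, and none of their members was called (0 of 115 tested, against 3.29% of all genes by edgeR's criterion). Among 9 transcription regulators 4 were above and 5 below 0, with a median of -0.01. Ppargc1a, the coactivator that drives mitochondrial biogenesis, was at 17.6, 22.8 and 55.2 CPM in f/f and 15.9, 15.7 and 18.03 CPM in Vil-KO (log2 fold change -0.94 ± 0.42, edgeR, adjusted p = 0.992), again highest in f/f 3 and -0.28 without that library. Gabpb1, a GABP subunit, had a log2 fold change of 0.30 ± 0.22, and of 0.0955 to 0.41 with 1 library left out. Of 26 genes of mitochondrial DNA maintenance and expression 21 were below 0, with a median of -0.14, which compares with -1.03 for the mitochondrial mRNAs. Polrmt, the mitochondrial RNA polymerase, was at 29.5, 34.7 and 28.3 CPM in f/f and 41.8, 21.5 and 45.9 CPM in Vil-KO (0.24 ± 0.30, and 0.0374 to 0.51 with 1 library left out). Mterf1a, a transcription termination factor, had a log2 fold change of -0.52 ± 0.38, and of -0.84 to -0.28 with 1 left out. Unlike the mitochondrial mRNAs, Polrmt was not raised in f/f 3. The list as a whole was, with a median centred log2 CPM of 0.25 in f/f 3 against -0.16 to 0.06 in the other libraries. Of its 26 genes 12 were highest in f/f 3, against 23.7% of all genes tested.

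Of 41 further assembly factors 27 were below 0, with a median of -0.15. Pet100, which assists complex IV assembly, was at 17.4, 23.6 and 43.4 CPM in f/f and 14.97, 17.2 and 16.1 CPM in Vil-KO, groups that did not overlap (-0.80 ± 0.34, edgeR, adjusted p = 0.992), and -0.35 without f/f 3. The groups did not overlap for 5 of the 41, all lower in Vil-KO, against 4.7% of all genes tested. They also did not overlap for 1 of 9 transcription regulators, higher in Vil-KO, against 5.21% of all genes. Among the 20 carriers, import and membrane genes 1 was lower without overlap. No gene of mitochondrial DNA maintenance and expression or of the citrate cycle list had groups without overlap. Foxred1, a complex I assembly factor, had a log2 fold change of 0.20 ± 0.20 (0.12 to 0.37 with 1 library left out). Of 19 genes of the citrate cycle and pyruvate dehydrogenase 13 were below 0, with a median of -0.11. Idh3a, a subunit of isocitrate dehydrogenase, was at -0.50 ± 0.28 (-0.17 without f/f 3) and Pdha1, of pyruvate dehydrogenase, at 0.32 ± 0.35. Of 20 carriers, import and membrane genes 10 were below 0, with a median of 0.01 and a range of -0.56 to 0.49. The smallest p in each direction belonged to Hspe1, a chaperonin (-0.35 ± 0.19), and Tomm20, an import receptor (0.49 ± 0.40). Tomm20 and Pdha1 had their highest value in Vil-KO 2 (214 and 321 CPM).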

How the data were processed

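RNA-seq of colon IECs from DSS-treated Nsd2 f/f (n = 3) and Nsd2 Vil-KO (n = 3) mice was analysed. The authors deposited 1 table of whole-number read counts per gene, not normalised or filtered. According to the methods, polyA RNA was sequenced in paired ends, trimmed with Cutadapt and Trimmomatic and aligned to GRCm38 with HISAT2 (mm10 in the submitters' processing notes). The methods name a directional library kit and the labels an Illumina TruSeq kit. The methods name StringTie for FPKM values and Ballgown for tests, and whether StringTie also made the deposited counts is not stated. The counting program of the table, its use of strand and its treatment of reads with several matches are not given in the sources used here.

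Groups and replicate numbers were taken from the sample labels, and columns were matched to samples by name. Gene positions, lengths and biotypes came from GENCODE vM21 (99.4% of rows found) and promoter windows from RefSeq (GRCm38.p6). Genes were filtered with filterByExpr, scaled with TMM and tested with edgeR 4.0.16 (quasi-likelihood, robust) in R 4.3.3 over all 14650 genes, with Benjamini-Hochberg adjustment. CPM values were computed from the counts and TMM factors, and levels per length divide CPM by exon length in kb over all transcripts of a gene. Standard errors are those of the fitted log2 fold changes. A gene was called at more than 1.2-fold change in either direction with p below 0.05 before adjustment. Nuclear copies were found with BLAST+ 2.17.0. The fitting script was tested on simulated data. DESeq2 1.42.0, limma 3.58.1 (voom with quality weights), other size factors and filters, a replicate block and libraries left out were run as alternatives.

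Members, lists and tests were chosen with earlier results of these data known. Named genes were Nsd2, Ndufa4, Cox5a, mt-Co1, Uqcrc1, all mitochondrial members, each called member, isoforms of complex IV subunits, in each complex the 2 nuclear members highest in level per length and the nuclear member with the smallest p in each direction, and in each list each gene called and the gene with the smallest p in each direction. Other members are named where a count of 5 or fewer, a copy or a fit without libraries turned on them, and these were chosen after their values were seen.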

Additional observations from a re-analysis of the deposited data

How the results depend on the processing

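Precision is limited by 3 libraries a genotype and by Nsd2 f/f replicate 3, and for mt-Nd3, mt-Nd4l and mt-Atp8 also by few counts. The number of members called was 2, where 3.29% of all genes were called. It became 4 with library sizes alone (2.61% of all genes called), 1 with the mitochondrial genes left out (3.31%) and 5 without the filter (3.27%). It was 5 with DESeq2 (4.33%), 5 with limma-voom (9.83%) and 0 with adjusted p below 0.05, which no gene passed in edgeR. Without both libraries that stand apart it was 12, or 11.5% of members against 11.0% of all genes. With 1 library left out the number ranged from 0 to 11. It was 11 without f/f 1 (3.12%), 5 without f/f 2 (2.14%), 1 without Vil-KO 3 (3.4%) and 0 without f/f 3 (3.38%). The replicate numbers did not pair the libraries: the correlations of same-numbered deviations were 0.32, -0.35 and -0.11, and 0 members were called with the replicate block, where Atp5k and mt-Atp6 had log2 fold changes of -0.90 and -1.19. The mitochondrial median (-1.03) was -0.31 with limma-voom and -0.66 with the replicate block, and ranged from -1.43 to 0.00938 with 1 library left out. The nuclear minus mitochondrial difference (0.80) was 0.12 with limma-voom and 0.0369 without both libraries that stand apart, and ranged from 0.0949 to 1.04 with 1 left out, lowest without f/f 3. The nuclear median (-0.23) ranged from -0.51 without Vil-KO 2 to 0.10 without f/f 3, the only fit run in which it lay above 0, and library sizes alone shifted the median of all genes to 0.05. Removing the trend on gene length, chosen after seeing the data, gave a nuclear median of -0.17.

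Nsd2 had a log2 fold change of -1.12 with library sizes alone and missed the criterion there, missed it at adjusted p below 0.05 (-1.16), and ranged from -1.42 to -0.87 with 1 library left out, missing it without f/f 1 (-1.04) or f/f 2 (-0.97). Over 48 genes named, 709 of 803 values under an alternative kept direction and call, 52 changed sign, 30 gained and 12 lost the call. Without both libraries that stand apart the log2 fold change turned to 0.0284 for Cox5a, 0.0479 for Sdha, 0.0103 for Atp5b, 0.0045 for Atp5a1 and 0.0239 for Cox6a1, and to -0.33 for Ndufa4, -0.12 for Pdha1, -0.0121 for Atp5g2 and -0.10 for Tomm20. With limma-voom it turned to 0.00016 for Sdha, -0.29 for Ndufa4, -0.0739 for Pdha1 and -0.0368 for Tomm20, and with library sizes alone to 0.0168 for Atp5b and 0.0188 for Atp5a1. With 1 library left out, the ranges that crossed 0 were, for complexes I and II, Ndufa2 -0.59 to 0.13, Ndufv1 -0.22 to 0.44, Sdha -0.28 to 0.0563, Sdhb -0.43 to 0.10 and Sdhd -0.46 to 0.24. For complexes III and V they were Uqcrc1 -0.21 to 0.33, Uqcrc2 -0.14 to 0.28, Uqcr10 -0.75 to 0.33, Atp5a1 -0.24 to 0.19, Atp5b -0.22 to 0.17 and Atp5g2 -0.19 to 0.50. For complex IV they were Cox4i1 -0.45 to 0.16, Cox5a -0.35 to 0.0948, Cox6a1 -0.34 to 0.00385, Cox7a2 -0.42 to 0.14, Cox7a2l -0.87 to 0.0619, Cox8a -0.37 to 0.18 and Ndufa4 -0.36 to 0.38. For the mitochondrial genes they were mt-Nd1 -1.10 to 0.28, mt-Nd5 -1.03 to 0.10, mt-Nd6 -1.43 to 0.0291, mt-Co1 -1.10 to 0.24, mt-Co2 -0.99 to 0.0228 and mt-Co3 -1.09 to 0.16, and outside the chain Pdha1 -0.19 to 0.56 and Tomm20 -0.15 to 0.74. The cause of these changes was not tested.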

Other observations

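Of the 14 rows dropped for a pseudogene symbol, the annotation lists 12 as processed pseudogenes. The others are Cox5b-ps, listed as protein coding, and Ndufb1-ps, listed as a long non-coding RNA. Cox5b-ps (99.2% identical to Cox5b over 390 bases) held 472, 529 and 796 counts in f/f 1, 2 and 3 and 399, 692 and 416 in Vil-KO 1, 2 and 3. Ndufb1-ps held 959, 889 and 945 counts in f/f and 649, 1083 and 823 in Vil-KO. Neither enters a count of members.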
